A study of Mus musculus with 12 samples.

Results

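The response of the olfactory epithelium to removal of the olfactory bulbs was followed in mice that had received empty liposomes (Lip-O), through 3 arrays of mice with bilateral olfactory bulbectomy (OBX) and 3 arrays of mice with a sham operation. These are 6 of the 12 arrays of the series, taken by the group named in the sample titles. All were wild-type male C57BL/6J mice aged 6 weeks. They were given empty liposomes in 50 µl intranasally on 3 days and in 200 µl intravenously on days 1 and 3, were operated on day 2, and were killed 48 h after surgery. The other 6 arrays carry the same operations in mice given liposomes filled with clodronate (Lip-C), an agent taken up by phagocytes that depletes macrophages, and served here for comparison. RNA came from microdissected olfactory epithelium, and biotin-labelled cRNA made from 3 µg of total RNA was hybridised to 1-colour Affymetrix arrays. The titles call the 3 arrays of a group biological replicates, and the sources do not say how many mice each array holds. No unoperated and no liposome-free mice are among the arrays, so both groups carry the liposomes and an operation.

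The olfactory epithelium is a layered sensory sheet on the upper wall of the nasal cavity. Its mature sensory neurons carry odorant receptors and a cyclic AMP cascade on immotile cilia and send an unmyelinated axon, wrapped by ensheathing cells, to the olfactory bulb. Sustentacular cells support them and metabolise foreign compounds, Bowman glands secrete the mucus, and globose and horizontal basal cells replace lost neurons. Removing the bulb severs every axon at its target, after which mature neurons die largely together, macrophages enter to remove them, and neurogenesis follows.

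The signals matched the labelled tissue: Omp, the olfactory marker protein of mature neurons, lay between 16164 and 18213 on the sham arrays, and Cyp1a2, a detoxifying enzyme of sustentacular cells, between 8429 and 9571, where the median signal of a Lip-O array was 117.5 to 132.2. The values are probe set intensities whose trimmed mean was the same on every deposited array, and a gene was tested on log2(signal + 16) if at least 3 arrays read it above their own 40th percentile (71.7 on average). A gene is called here, and said to rise or fall, when its limma p-value adjusted over all 13628 genes tested is under 0.05. Log2 changes are OBX minus sham with their standard errors. In a principal component analysis of the 6 arrays, component 1 (44.8% of the variance) put the OBX arrays at 32.4, 17.7 and 13.5 and the sham arrays at -14.9, -19.8 and -28.9. Component 2 (23.9%) set sham replicate 1 at 32.5 apart from the other 5 arrays, which lay between -15.4 and 7.35. That array also held much higher signals of acute phase and interferon genes than the other sham arrays, as given beside those genes.

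In all, 1465 genes rose (10.7% of those tested) and 1211 fell (8.89%), together 19.6%. These shares are the background for each list count below. The 3 OBX and 3 sham signals did not overlap for 1446 of the genes that rose and 1201 of those that fell, and for 37.7% of all genes tested. A lack of overlap is thus the rule in a called gene and adds little to its call. Some of the genes named below were also drawn for it. In size, 139 genes fell and 58 rose by more than 1 on the log2 scale, while the median change of called genes was 0.51 for those that rose and -0.54 for those that fell. Over all genes tested the median was 0.05. The counts depended on single arrays. Without OBX replicate 1, 728 genes rose and 675 fell, and without sham replicate 3 these were 813 and 721. Without sham replicate 2, 958 genes rose. The calls held in each fit that left out 1 of the 12 arrays for 584 of the rising and 585 of the falling genes.

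**Figure D1:**
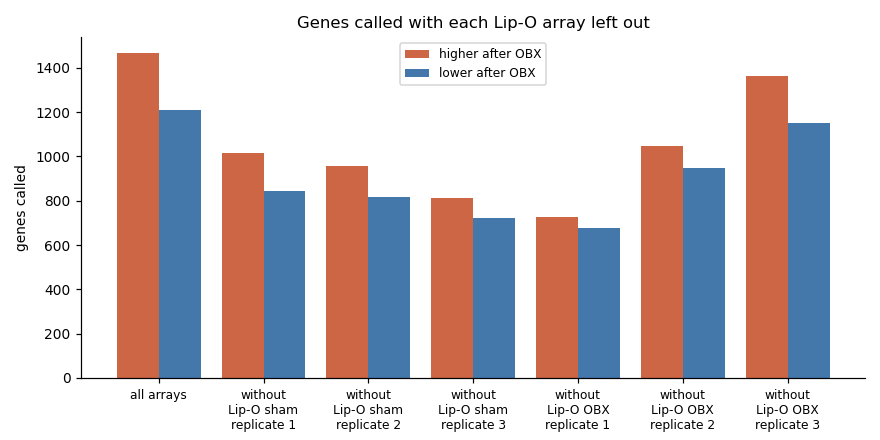
Genes called higher (orange) or lower (blue) after OBX in Lip-O mice, with all arrays and with each of the 6 Lip-O arrays left out in turn; the vertical axis is a number of genes. The bars are lowest without OBX replicate 1, at 728 and 675, against 1465 and 1211 with all arrays.

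Genes of odour transduction fell almost as a whole. Of 16 tested members, 13 fell and none rose, with a median log2 change of -0.82, and in the fits without 1 array 11 to 13 fell. The Omp signals were 16164, 16197 and 18213 on the sham arrays and 6768, 7543 and 11517 on the OBX arrays, a fall by 1.96-fold in the mean that separated the groups (-1.01 ± 0.17, adjusted p = 0.00399). OBX replicate 3 kept the highest level of the 3. In whole tissue, fewer mature neurons and less RNA in each neuron cannot be told apart. Cnga4, a modulatory subunit of the olfactory cyclic nucleotide-gated channel, read 7122, 5939 and 7054 on the sham arrays and 1986, 2120.1 and 3744 on the OBX arrays (-1.41 ± 0.23, adjusted p = 0.00352). Cnga2, the subunit that opens with cyclic AMP, fell less, from 10311 ± 491 (SD, n = 3) to 6357 ± 1575 (-0.72 ± 0.16, adjusted p = 0.0113). OBX replicate 3 was again the highest OBX array for both channel genes, and no OBX array reached a sham array.

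Along the cascade, the G protein genes fell too. Gng13, a gamma subunit named after its values were seen, gave signals of 13419, 12921 and 14731 on the sham arrays and 6555, 6992 and 9897 on the OBX arrays (-0.83 ± 0.14, adjusted p = 0.00423). Adcy3, the adenylyl cyclase that makes cyclic AMP, gave 10124, 9619 and 11847 on the sham arrays and 4249.5, 4414 and 7776 on the OBX arrays (-0.99 ± 0.22, adjusted p = 0.0125), and without OBX replicate 1 its adjusted p was 0.0528. Gnal, the olfactory G protein alpha subunit, changed by -0.53 ± 0.14 (adjusted p = 0.0283), a call lost without OBX replicates 1 or 2 or sham replicates 1 or 3 (highest adjusted p = 0.103). Ric8b, which supports Gnal folding, fell by 2.39-fold in mean signal, and Pde1c, a phosphodiesterase of the cilia, by 2.62-fold. Of the 3 members that were not called, Stoml3, a stomatin-related protein of the cilia, changed by -0.46 (adjusted p = 0.0634). The chloride importer Slc12a2 was the only member with a positive change (0.24, adjusted p = 0.0893).

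The windows before the start sites of these genes are given because the members moved together and EBF factors, which bind sites of the pattern CCCNNGGGA, are regulators of olfactory neuron genes. Of 13 transduction genes with a RefSeq window of 250 bases before the start (GRCm38.p6), 5 hold this pattern on either strand (38.46%), while 2 longer or shifted forms of the pattern stood in 0 of the 13. The pattern given stood in 8.453% of genes tested that have a window, 9.17% of falling and 9.39% of rising genes. The windows of Cnga2 (chrX:71991599-71991848, plus strand, match starting 67 bases before the start) and Gng13 (chr17:25716922-25717171, plus strand, 94 bases before it) show the match in capitals. A match is a description of the letters, one of 13 patterns searched with the results known.
Cnga2: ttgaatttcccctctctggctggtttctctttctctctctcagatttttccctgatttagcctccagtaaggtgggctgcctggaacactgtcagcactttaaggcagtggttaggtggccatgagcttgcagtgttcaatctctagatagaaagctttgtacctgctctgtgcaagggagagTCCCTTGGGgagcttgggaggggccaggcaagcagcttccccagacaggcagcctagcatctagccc
Gng13: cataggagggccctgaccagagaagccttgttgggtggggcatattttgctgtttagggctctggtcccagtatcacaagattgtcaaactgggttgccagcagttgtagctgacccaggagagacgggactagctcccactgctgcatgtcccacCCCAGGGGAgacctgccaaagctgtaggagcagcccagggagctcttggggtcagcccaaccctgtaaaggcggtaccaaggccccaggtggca

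Odorant receptors, one of which each neuron expresses, fell with the cascade behind them. The annotation names 39 receptor genes, 9 of which did not pass the filter on dim probe sets, and of the 30 tested 16 fell, none rose and 29 had a negative change, with a median of -0.72. The count was 10 without sham replicate 1 and 9 without sham replicate 3. A receptor that passed the filter through the sham arrays alone had to be lower after OBX, so the count holds for the tested receptors and not for the family. Olfr17 read 564, 512 and 489 on the sham arrays and 121, 155 and 136 on the OBX arrays, a 3.79-fold lower mean (-1.81 ± 0.19, adjusted p = 0.000892). Olfr701 read 376, 310.5 and 358 on the sham arrays and 47.5, 84.3 and 98.1 on the OBX arrays (-2.01 ± 0.33, adjusted p = 0.00389). For both receptors the lowest sham array stood above the highest OBX array by more than the range within either group. Other receptors went below the 40th percentile after OBX. Olfr1264 had signals of 298, 188 and 378 on the sham arrays and 64.3, 45 and 5.6 on the OBX arrays. Olfr288 had signals of 138, 77.6 and 213 on the sham arrays and 8.5, 33.2 and 29.9 on the OBX arrays. Among the Lip-O arrays both were above the filter level on the sham arrays alone, so their values are a description with no test.

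Genes of the machinery that builds and fills cilia fell. Of 22 genes of intraflagellar transport and the BBSome, a complex that sorts membrane proteins in cilia, 16 fell, none rose and 21 had negative changes (median -0.44). Kif17, a kinesin of the ciliary tip, read 316, 299 and 394 on the sham arrays and 128, 195 and 201 on the OBX arrays (-0.90 ± 0.17, adjusted p = 0.00607). Bbs7, a BBSome subunit, read 1335, 1218 and 1400.3 on the sham arrays and 659, 801 and 905 on the OBX arrays (-0.74 ± 0.11, adjusted p = 0.00235). Ttc8, another subunit, and Ift80 of the transport particle fell by 1.61-fold and 1.72-fold in mean signal. The groups did not overlap for any of these 4 genes. The genes not called with the largest changes were Ift20 (-0.34, adjusted p = 0.147) and Ift57 (-0.26, adjusted p = 0.0774).

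Genes of motile cilia, which olfactory neurons of mammals largely lack and respiratory ciliated cells carry, fell in part. Of 22 tested, 9 fell and none rose, with a median change of -0.32. Rsph4a, of the radial spoke head, read 1409, 1392 and 1560.4 on the sham arrays and 710.0, 1008 and 958 on the OBX arrays (-0.71 ± 0.13, adjusted p = 0.00643), and Dnah11, an outer arm dynein, read 863, 668 and 825 on the sham arrays and 465, 484 and 487 on the OBX arrays (-0.69 ± 0.11, adjusted p = 0.00375). Ccdc40, of the axonemal ruler, fell by 1.67-fold in mean signal. Foxj1, the master regulator of motile cilia, differed by -0.32 ± 0.15 (adjusted p = 0.163). In Lip-C mice 6 of these 22 genes rose and 1 fell (median 0.20), with changes of 0.00 ± 0.13 for Rsph4a and 0.03 ± 0.11 for Dnah11. The difference between the responses was -0.71 ± 0.19 (adjusted p = 0.121) and -0.72 ± 0.16 (adjusted p = 0.0902), neither past the threshold. The share of respiratory epithelium in a dissection was not tested.

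X-boxes, the sites of RFX factors that control cilia genes, were searched by the letters of their consensus in the same windows, on both strands. Among genes with a window, the pattern stood in 4.94% of falling, 1.55% of rising and 2.772% of all tested genes. A gene was counted if any of its windows held a match. A relaxed form of the pattern showed a smaller contrast, at 5.948% of falling, 3.876% of rising and 4.149% of all tested genes. In the transport and BBSome list 2 of 20 genes with a window held the first form, among them Bbs7 (chr3:36613390-36613639, minus strand, match starting 121 bases before the start). The other holder, Ift57, was not called, and neither were the 2 holders among 17 motile cilia genes with a window, Tekt4 and Hydin. The window of Bbs7, whose fall is given above, is printed with the match in capitals.
Bbs7: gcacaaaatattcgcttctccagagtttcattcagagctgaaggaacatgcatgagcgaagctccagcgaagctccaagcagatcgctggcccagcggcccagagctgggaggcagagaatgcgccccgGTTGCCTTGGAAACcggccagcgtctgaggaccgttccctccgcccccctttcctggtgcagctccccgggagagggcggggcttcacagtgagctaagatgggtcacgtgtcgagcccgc

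Rfx4, a member of the RFX family, was itself among the genes with the largest falls, with signals of 325, 311 and 302 on the sham arrays and 53.9, 95.6 and 89.4 on the OBX arrays (-1.81 ± 0.18, adjusted p = 0.000892). Large falls were also measured in genes outside the lists. Gcnt7, a glycosyltransferase, read 1147, 959.7 and 1026 on the sham arrays and 129, 246 and 241 on the OBX arrays, 5.08-fold lower in the mean (-2.31 ± 0.22, adjusted p = 0.000892). Scgn, a calcium-binding protein, read 1279, 1169 and 994 on the sham arrays and 205, 226 and 312 on the OBX arrays (-2.16 ± 0.23, adjusted p = 0.00102). Both genes were drawn from the largest falls with separate groups. Nxnl2, a thioredoxin-like factor, fell by 4.2-fold and Tex52, a gene first named for testis, by 3.99-fold, the latter with little spread (from 819 ± 29.2 to 206 ± 9.18).

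On the side of the axon, transmission genes fell in part. Of 22 presynaptic genes 8 fell and 2 rose (median -0.34), and 20 had negative changes. Slc17a6, the vesicular transporter that loads glutamate, read 4484, 4550.2 and 4675 on the sham arrays and 1386, 1899 and 2805 on the OBX arrays (-1.22 ± 0.20, adjusted p = 0.0034). Syp, of the vesicle membrane, read 2437, 2164 and 2337 on the sham arrays and 1017, 1014 and 1494 on the OBX arrays (-0.99 ± 0.16, adjusted p = 0.00306), and Sv2b and Syt1, a vesicle glycoprotein and the calcium sensor of release, fell by 2.35-fold and 1.75-fold in mean signal. OBX replicate 3 was the highest OBX array for each of these 4 genes. The 2 that rose were Pclo, of the active zone, and Sncg, gamma-synuclein, named after their values were seen. Without OBX replicate 2 or sham replicate 2 neither was called, and without OBX replicate 1, sham replicates 1 or 3 or Lip-C sham replicates 2 or 3, 1 was. With its probe sets averaged Pclo changed by 0.22 and was not called (adjusted p = 0.329).

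Of 16 genes of the axonal cytoskeleton and its motors, 3 rose and 1 fell, with a median of -0.07. Mapt, the microtubule protein tau, rose from 593, 623 and 607 on the sham arrays to 999.8, 1046 and 900.0 on the OBX arrays (0.68 ± 0.15, adjusted p = 0.0135). Map1a, a dendritic and axonal microtubule protein, changed the other way (-0.54 ± 0.13, adjusted p = 0.0181), a call lost without OBX replicate 1 or sham replicates 1 or 3 (highest adjusted p = 0.0709). Averaging the probe sets of Map1a also lost the call (adjusted p = 0.0598). The 3 rises became 1 without OBX replicates 1 or 2 or sham replicates 2 or 3, and falls numbered 2 without OBX replicates 2 or 3 or Lip-C OBX replicate 1. Of 27 axon adhesion and guidance genes 8 fell and none rose (median -0.31), and 5 fell without OBX replicate 1 or sham replicate 1. Ncam2, the adhesion molecule of a zonal subset of olfactory axons, read 1014, 966 and 1139.8 on the sham arrays and 503, 573 and 383 on the OBX arrays (-1.09 ± 0.14, adjusted p = 0.00151). Efna3, an ephrin ligand, read 3769, 3219 and 3134 on the sham arrays and 1202, 1149 and 1661 on the OBX arrays (-1.34 ± 0.18, adjusted p = 0.00151), and Plxna3, a semaphorin receptor, fell by 2.11-fold in mean signal. For Ncam2 the lowest array was OBX replicate 3, which was the highest OBX array for Efna3.

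Ion channels of excitability were called at a share of 43.1%, against 19.6% of all genes tested. Their falls exceeded the share of all genes (8.89%), while their rises lay near it (10.7%). Of 72 voltage-gated and potassium channel genes tested, 22 fell and 9 rose, and without OBX replicate 1 these were 12 and 5. One of the 9, Kcnq1ot1, is a noncoding RNA that the symbol pattern took in. Scn4b, a beta subunit of sodium channels, read 3181, 3069.9 and 4588 on the sham arrays and 601, 1219 and 1400.1 on the OBX arrays (-1.80 ± 0.27, adjusted p = 0.00245). Cacnb2, of calcium channels, read 879, 924 and 979 on the sham arrays and 297, 368 and 391 on the OBX arrays (-1.37 ± 0.16, adjusted p = 0.00114), Kcnn2, a calcium-activated potassium channel, fell by 2.62-fold and Kcnc4, a fast potassium channel, by 2.56-fold in mean signal. None of the 4 had overlapping groups, and Scn4b was drawn from genes with separate groups. The largest changes among channels not called were those of Kcng1 and Kcnt1, both potassium channel genes, at -1.17 (adjusted p = 0.217) and -0.52 (adjusted p = 0.218).

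**Figure D2:**
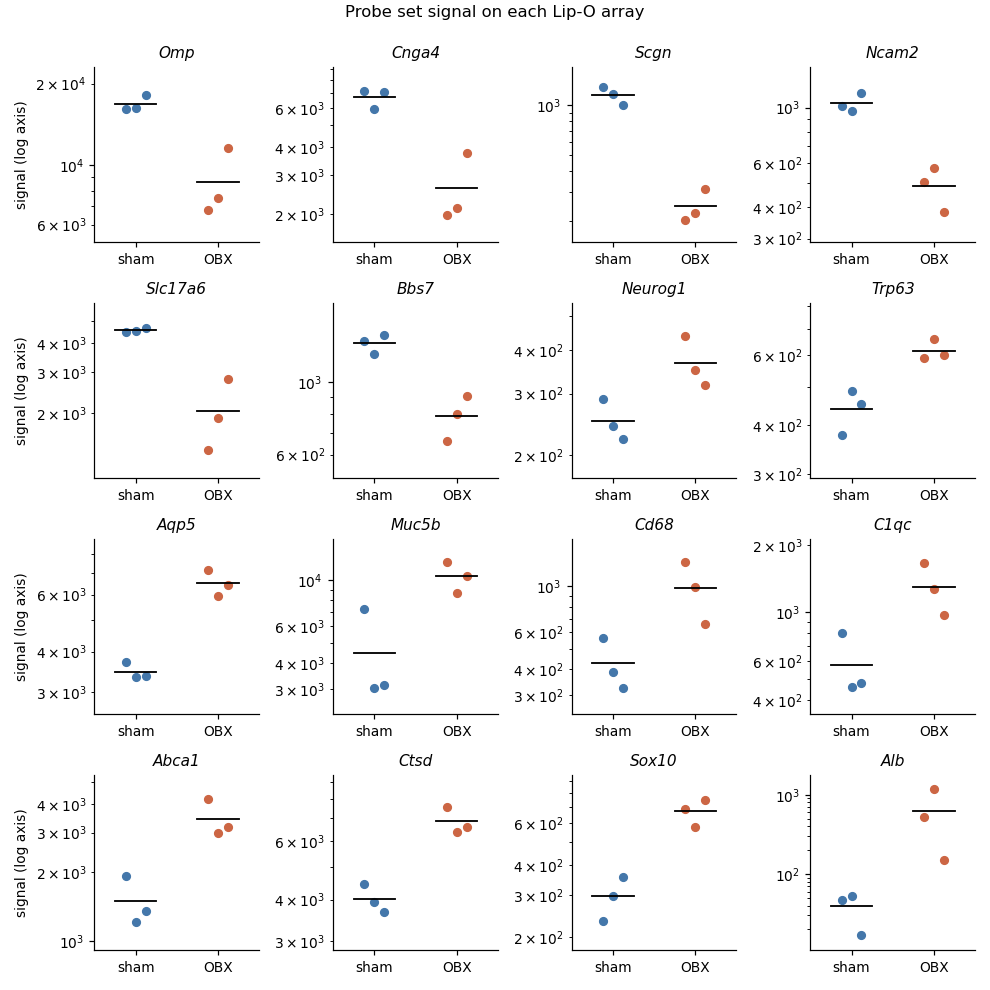
Probe set signal (log axis, 1 point an array) of 16 genes on the 3 sham (blue) and 3 OBX (orange) Lip-O arrays, with a bar at each group mean. Neuronal genes such as Omp and Scgn are lower on all OBX arrays, genes such as Aqp5, Abca1 and Ctsd are higher on all of them, and sham replicate 1, the leftmost blue point, is the highest sham array for Muc5b, Cd68 and C1qc.

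Genes of neuronal precursors rose in part. Of 18 tested, 6 rose, none fell and 15 had positive changes (median 0.40), counts that became 2, 3 and 3 without OBX replicates 1 or 2 or sham replicate 3, and 10 without OBX replicate 3. St18, a zinc finger factor of differentiating neurons, read 109, 111 and 84.8 on the sham arrays and 183, 188 and 194 on the OBX arrays (0.81 ± 0.17, adjusted p = 0.0107), with no overlap between groups. Gadd45g, a growth arrest gene of committed precursors, read 391, 384 and 318 on the sham arrays and 627, 518 and 505 on the OBX arrays (0.57 ± 0.12, adjusted p = 0.0104). Sox11, a factor of early neurons, changed by 0.66 ± 0.18 (adjusted p = 0.0255), and Neurog1, the proneural factor of late globose cells, by 0.52 ± 0.15 (adjusted p = 0.032). Sox11 lost the call without OBX replicate 1 or sham replicates 2 or 3 (highest adjusted p = 0.0952), and Neurog1 without these or OBX replicate 2 (highest adjusted p = 0.116). With its probe sets averaged Neurog1 changed by 0.398 and was not called (adjusted p = 0.133). Neurod1, which acts after Neurog1, differed by 0.43 ± 0.19 (adjusted p = 0.134) although its groups did not overlap.

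Of 18 genes of immature sensory neurons, which are extending axons, 4 rose and none fell (median 0.24), and these became 1, 2, 2 and 1 without OBX replicates 1 or 2 or sham replicates 2 or 3, while 1 fell without Lip-C OBX replicate 1. The share called was 22.2%, against 19.6% of all genes tested in either direction and 10.7% for rises. Chl1, an adhesion molecule, read 218, 138 and 179 on the sham arrays and 275, 249.8 and 298 on the OBX arrays (0.59 ± 0.15, adjusted p = 0.0235), and lost the call without OBX replicates 1 or 3 or sham replicates 2 or 3 (highest adjusted p = 0.071). Gap43, the growth cone protein used as the marker of this stage, read 3539.6, 4455 and 3503 on the sham arrays and 5077, 5660.2 and 3415 on the OBX arrays, groups that overlapped (0.28 ± 0.19, adjusted p = 0.34). Among 18 transcription factors of the lineage, Mecom (from 1565 ± 143 to 2257 ± 105; 0.53, adjusted p = 0.00781) and Otx2 (from 2493 ± 144 to 3345 ± 138; 0.42, adjusted p = 0.0115) rose and 3 factors of the EBF family fell. Ebf4, of the 3 the one with the largest change, fell from 1742 ± 82.6 to 1154 ± 207 (-0.60, adjusted p = 0.0171). Falls among the 18 numbered 0 without OBX replicates 1 or 2, 1 without OBX replicate 3, any sham array, Lip-C sham replicates 1 or 3 or Lip-C OBX replicate 2, and 5 without Lip-C OBX replicate 3. Ebf4 lost its call without OBX replicates 1 or 2 (highest adjusted p = 0.055), and 4 factors rose without OBX replicate 3.

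Division genes gave few calls. All 23 mitosis genes had positive changes (median 0.43), yet limma called none of them, with 4 at an unadjusted p under 0.05, 2 called with the replicate number as a block or without OBX replicate 3, and 1 called without Lip-C OBX replicate 3. Mki67, a protein of dividing cells, read 482, 1202 and 769 on the sham arrays and 981, 1719.6 and 1072 on the OBX arrays (0.66 ± 0.32, adjusted p = 0.174). The groups overlapped, as sham replicate 2 exceeded OBX replicates 1 and 3. Plk1, a mitotic kinase, differed by 0.80 ± 0.29 (adjusted p = 0.0779) and Ube2c, of the anaphase machinery, by 0.67 ± 0.26 (adjusted p = 0.099). Of 23 replication genes 1 rose, Chaf1b, a histone deposition factor that read 77.4, 92.6 and 71.9 on the sham arrays and 138, 123 and 142 on the OBX arrays (0.64 ± 0.14, adjusted p = 0.0123), and with the replicate block or without sham replicate 3 this was 2.

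Horizontal basal cells, the reserve stem cells of the epithelium, showed 3 rises and no falls among 12 genes (median 0.40), and 5 rises without Lip-C OBX replicate 3. Trp63, the factor that keeps these cells dormant, read 377, 487 and 453 on the sham arrays and 590.5, 658 and 600.2 on the OBX arrays (0.48 ± 0.11, adjusted p = 0.0125), and with the gene's probe sets averaged the change was 0.29 and was not called (adjusted p = 0.164). Itga6 and Lamb3, which anchor them to the basal lamina, rose by 1.54-fold and 1.5-fold in mean signal. The keratins Krt5 and Krt14 differed by 0.46 ± 0.16 (adjusted p = 0.0665) and 0.31 ± 0.17 (adjusted p = 0.213). Of 10 genes of stratified and wounded epithelium 3 rose, with Sprr1a, a cornified envelope protein also induced in injured neurons, at 246, 95.6 and 87 on the sham arrays and 346, 416 and 281 on the OBX arrays (1.31 ± 0.29, adjusted p = 0.0124), a call lost in a fit of only the 6 Lip-O arrays (adjusted p = 0.0669). Sham replicate 1 was the highest sham array for Sprr1a and still below each OBX array.

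Genes of supporting and secretory cells rose in part. Of 15 sustentacular genes 4 rose and none fell (median 0.10), and 2 rose without OBX replicates 1 or 3 or sham replicates 2 or 3. Cyp1a2 read 9311, 8429 and 9571 on the sham arrays and 13558, 13107 and 13300.5 on the OBX arrays (0.55 ± 0.08, adjusted p = 0.0019), and Ephx1, an epoxide hydrolase, rose by 1.34-fold in mean signal (0.43 ± 0.09, adjusted p = 0.00835). Enzymes of foreign compounds outside the list also rose: Cyp1a1, the target gene of the aryl hydrocarbon receptor, read 1552, 1191 and 1275 on the sham arrays and 3234, 2546 and 3961 on the OBX arrays (1.25 ± 0.23, adjusted p = 0.00523), and Fmo5, a flavin monooxygenase, read 875, 956 and 998 on the sham arrays and 2589, 2234 and 1979.8 on the OBX arrays (1.25 ± 0.19, adjusted p = 0.00273). Neither overlapped. In Lip-C mice Cyp1a1 changed by -0.43 ± 0.23, and the difference between the responses, 1.69 ± 0.32, had an adjusted p of 0.0776. Atp1b2, a sodium pump subunit, combined a large rise with a small spread, at 197, 206 and 198 on the sham arrays and 625, 464 and 485 on the OBX arrays (1.31 ± 0.12, adjusted p = 0.00087).

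Of 13 genes of Bowman glands and mucus 6 rose and none fell (median 0.29), and 3 rose without OBX replicates 1 or 3 or sham replicate 3. Aqp5, the water channel of gland cells, read 3725, 3329 and 3364 on the sham arrays and 7125, 5952 and 6432 on the OBX arrays (0.90 ± 0.10, adjusted p = 0.00102). Muc5b, a gel-forming mucin, read 7282, 3033 and 3125 on the sham arrays and 12214, 8626 and 10502 on the OBX arrays (1.33 ± 0.29, adjusted p = 0.0107). Muc2, another gel-forming mucin, rose by 1.68-fold and Muc15, a membrane mucin outside the list, by 2.27-fold in mean signal. In a fit of only the 6 Lip-O arrays Muc5b and Muc15 lost the call (adjusted p = 0.0595 and 0.0503). Sham replicate 1 had the highest Muc5b signal of the sham arrays and stayed below every OBX array. Dmbt1, a secreted scavenger protein, scattered widely, at 8953, 11977 and 15569 on the sham arrays and 832, 4646 and 8860.4 on the OBX arrays (-1.86 ± 0.84, adjusted p = 0.148). Of 8 genes of microvillar and chemosensory cells only Itpr3, the calcium release channel of these cells, rose (0.63, adjusted p = 0.0281), a call lost without each of the 6 Lip-O arrays (highest adjusted p = 0.0781), while 2 were called without Lip-C sham replicate 1.

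Among macrophage genes 3 lists were read, for identity, activation and clearance. Of 24 identity genes, Ms4a7, a membrane protein of tissue macrophages, was the 1 that rose, at 402, 415 and 407 on the sham arrays and 1039, 883 and 562 on the OBX arrays (0.95 ± 0.18, adjusted p = 0.00663), although 20 had positive changes (median 0.41) and 9 were higher at an unadjusted p under 0.05. With the replicate number as a block 6 rose, without sham replicate 1 there were 5, and without OBX replicate 3 or Lip-C OBX replicates 1 or 3 there were 2. Csf1r, the receptor on which macrophages depend, read 2231, 2589 and 2328 on the sham arrays and 3413, 2754 and 2176 on the OBX arrays (0.20 ± 0.18, adjusted p = 0.46). Adgre1, which encodes F4/80, and Aif1, a cytoskeletal protein of macrophages, differed by 0.26 ± 0.19 (adjusted p = 0.383) and 0.52 ± 0.20 (adjusted p = 0.089). OBX replicate 1 lay above all sham arrays for Csf1r, and OBX replicate 3 below them.

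Activation genes are those that phagocytes raise as they take up material. Of 20 activation genes 5 rose and none fell (median 0.48), and 3 rose without OBX replicates 1 or 2 or sham replicate 3. Cd68, a lysosomal membrane protein of phagocytes, read 566, 387 and 324 on the sham arrays and 1312, 989 and 656 on the OBX arrays (1.16 ± 0.25, adjusted p = 0.0116), a call lost in a fit of only the 6 Lip-O arrays (adjusted p = 0.0549). Apoe, which carries exported lipid, read 6139.7, 5688 and 6567 on the sham arrays and 10216, 8436 and 9612 on the OBX arrays (0.62 ± 0.11, adjusted p = 0.00457). Msr1, a scavenger receptor, lay under the 40th percentile in sham tissue, at 63.1, 41 and 33.1, and reached 78.5, 107 and 116. Among the Lip-O arrays Msr1 was above the filter level on the OBX arrays alone, so its values are a description. Its call, counted among the 5, carries this limit and was lost with its probe sets averaged (adjusted p = 0.127). Gpnmb, a glycoprotein of lipid-laden macrophages, rose (0.85, adjusted p = 0.0275), with a call lost without OBX replicates 1 or 2 or any sham array (highest adjusted p = 0.093).

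Of 16 complement genes 6 rose and none fell (median 0.43), but 2, 3 and 2 rose without OBX replicate 1 and sham replicates 2 and 3, and 1 fell under the replicate block or without Lip-C OBX replicate 3. The 3 chains of C1q, which tag debris for uptake, led the list. C1qc read 799.9, 461 and 477 on the sham arrays and 1658, 1262 and 969.9 on the OBX arrays (1.15 ± 0.23, adjusted p = 0.00746), C1qa changed by 1.08 ± 0.28 (adjusted p = 0.022) and C1qb by 0.95 ± 0.24 (adjusted p = 0.0219). C1qc was called in each fit without 1 array, while C1qa and C1qb lost the call without OBX replicate 1 or sham replicates 2 or 3 (highest adjusted p = 0.0792 and 0.0814). Cd59a, which shields cells from the terminal complex, read 462, 521 and 512 on the sham arrays and 893, 837 and 968 on the OBX arrays (0.83 ± 0.11, adjusted p = 0.00151), with all OBX arrays above all sham arrays.

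In clearance of dying cells and lipid export, where leaving out 1 array moved no count by over 1.5 times, 12 of 28 genes rose, none fell and 25 had positive changes (median 0.34). Abca1, the cholesterol exporter, read 1934, 1209 and 1348 on the sham arrays and 4204, 2999.9 and 3173 on the OBX arrays (1.21 ± 0.19, adjusted p = 0.00307). Stab1, a receptor for exposed phosphatidylserine, read 162, 170.1 and 165 on the sham arrays and 329, 320.1 and 253 on the OBX arrays (0.79 ± 0.13, adjusted p = 0.00414). Axl, a bridging-ligand receptor of the same step, read 391, 364 and 326 on the sham arrays and 705, 587 and 565 on the OBX arrays (0.75 ± 0.13, adjusted p = 0.00426), and Scarb1, a lipoprotein receptor, rose by 1.67-fold in mean signal. None of the 4 had overlapping groups, and each kept its call in all fits without 1 array. Mfge8, a bridging ligand of the same step, differed by 0.21 ± 0.09 (adjusted p = 0.134), and Mertk, a sister receptor of Axl, by 0.41 ± 0.15 (adjusted p = 0.079).

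Lysosomal genes rose in smaller number: 7 of 29, with none lower and a median of 0.14, and 3, 4 and 3 without OBX replicate 1 and sham replicates 2 and 3. These calls made up 24.1%, against 19.6% of all genes tested in either direction and 10.7% for rises. Without OBX replicate 1, 1 member fell. Ctsd, the aspartic protease cathepsin D, read 4467, 3946 and 3662 on the sham arrays and 7564, 6387 and 6603 on the OBX arrays (0.77 ± 0.10, adjusted p = 0.00161). Ctsz, a carboxypeptidase, and Gusb, a glucuronidase, rose by 1.47-fold and 1.46-fold, with calls lost without OBX replicate 1 or sham replicate 3, and for Ctsz also without OBX replicate 2 or sham replicate 2 (highest adjusted p = 0.0627 and 0.0625). Averaging the probe sets of Gusb also lost its call (adjusted p = 0.0711). Tfeb, a factor that drives lysosomal genes through the CLEAR element, changed by 0.52 ± 0.14 (adjusted p = 0.0295), a call lost without OBX replicates 1 or 2 or any sham array (highest adjusted p = 0.102). The CLEAR core CACGTGAC stood on either strand in the windows of 8 of 24 lysosomal genes (33.33%), against 3.666% of tested genes with a window, 3.36% of rising and 3.83% of falling genes. Of these 8 genes Ctsd was called and the other 7 were not, and a longer form of the element stood in the windows of 0 of the 24 genes. The Ctsd window (chr7:142387828-142388077, minus strand) holds 2 matches, shown in capitals.
Ctsd: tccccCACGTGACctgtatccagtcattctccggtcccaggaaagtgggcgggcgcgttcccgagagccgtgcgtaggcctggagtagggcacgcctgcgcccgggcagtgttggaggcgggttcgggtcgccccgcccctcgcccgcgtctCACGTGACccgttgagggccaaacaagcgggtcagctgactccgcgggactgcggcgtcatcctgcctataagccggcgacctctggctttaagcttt

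**Figure D3:**
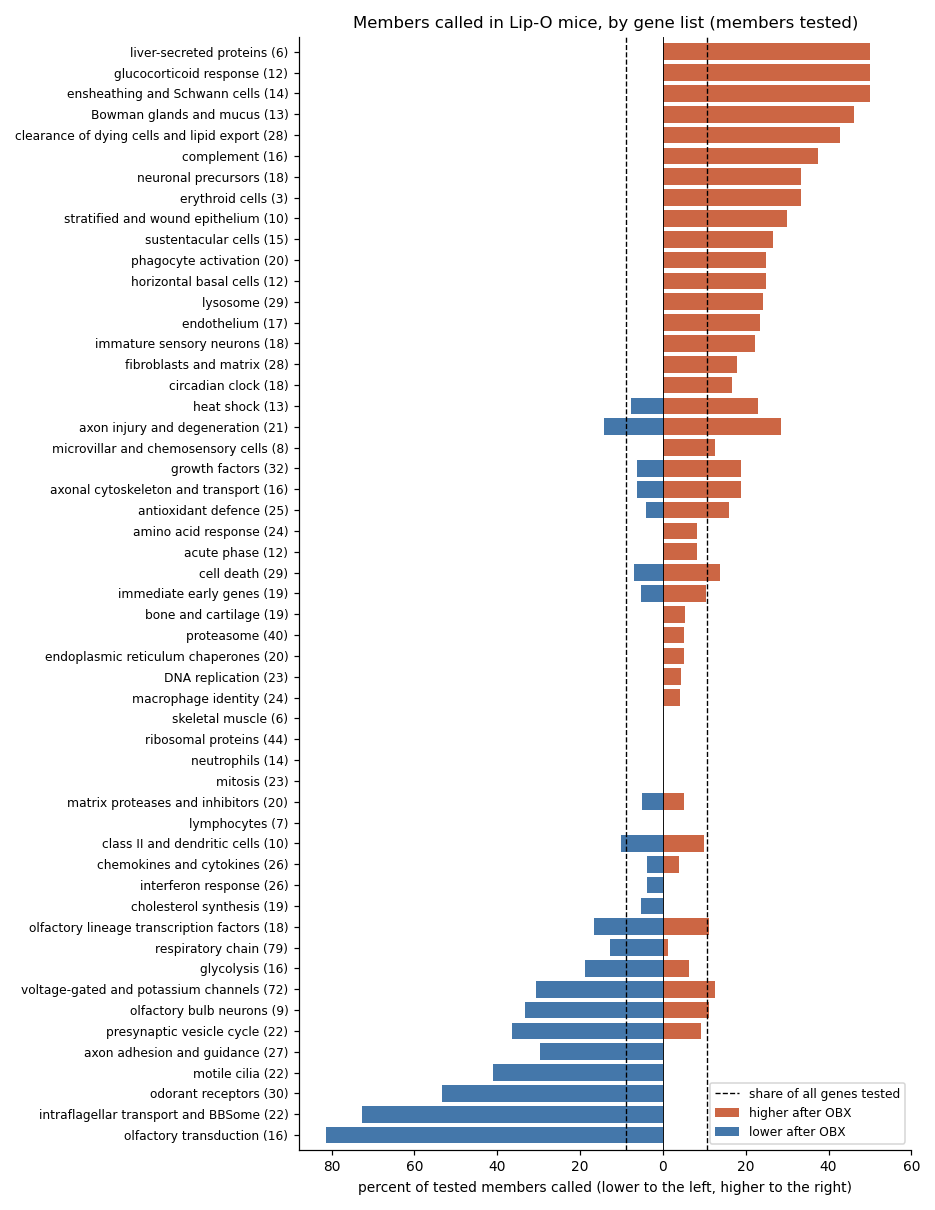
Percent of the tested members of 53 gene lists that were called lower (blue, leftward) or higher (orange, rightward) after OBX in Lip-O mice, with the number tested in parentheses and dashed lines at the shares of all genes tested (8.89% lower, 10.7% higher). Olfactory transduction, cilia transport and odorant receptors extend farthest to the left, and no neutrophil, lymphocyte, mitosis, skeletal muscle or ribosomal protein gene was called.

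Few genes of leukocyte recruitment were called. Of 26 chemokine and cytokine genes 1 rose and 1 fell, at a median of -0.18. Ccl9, a chemokine of the macrophage inflammatory protein family, read 1797, 1013 and 1089 on the sham arrays and 4012, 2398 and 3776 on the OBX arrays (1.39 ± 0.27, adjusted p = 0.00713). Il18, a cytokine of the interleukin-1 family, fell by 1.3-fold in mean signal (-0.37, adjusted p = 0.0138), and lost the call without OBX replicate 1 or sham replicate 3 (highest adjusted p = 0.0551). Without sham replicate 1, 3 chemokine genes rose. None of 14 neutrophil genes was called by limma (1 at an unadjusted p under 0.05, 1 called with the replicate block and 1 without sham replicate 1), and none of 7 lymphocyte genes (0 at an unadjusted p under 0.05), of which 1 fell without Lip-C OBX replicate 3. Of 10 class II and dendritic cell genes 1 rose and 1 fell, with no fall without OBX replicate 1 or sham replicate 2 and 2 rises without OBX replicate 3. Cd86, a costimulatory ligand, went from signals under the 40th percentile (30.1, 29.6 and 56.9) to 88.8, 89.9 and 94.3. Among the Lip-O arrays Cd86 was above the filter level on the OBX arrays alone, so its values are a description and its call carries this limit. Zbtb46, a dendritic cell factor, fell (-0.72, adjusted p = 0.0157), and was not called with its probe sets averaged (adjusted p = 0.0781).

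Sham replicate 1 stood above the other sham arrays for several acute phase and interferon genes. Lcn2, a siderophore-binding protein, read 19901, 3636 and 2404 on the sham arrays and 21662, 10452 and 18452 on the OBX arrays, so that this sham array exceeded OBX replicates 2 and 3 (1.52 ± 0.66, adjusted p = 0.129). Serpina3n, a protease inhibitor, read 9727, 1908 and 1353 on the sham arrays and 12024, 6717 and 10611 on the OBX arrays (1.69 ± 0.60, adjusted p = 0.0715). Of 12 acute phase genes 1 rose, Itih4, a plasma protease inhibitor. It read 12.6, 8.7 and 13.1 on the sham arrays and 112, 48.9 and 74.3 on the OBX arrays. Among the Lip-O arrays Itih4 was above the filter level on OBX replicates 1 and 3 alone, so its values are a description. Its call was lost without OBX replicates 1 or 3 or any sham array (highest adjusted p = 0.0965). The list's count was 4 without sham replicate 1, 3 with the replicate block and 0 without OBX replicates 1 or 3 or sham replicates 2 or 3. Of 26 interferon response genes 22 had positive changes (median 0.35), none rose and Ifit2, an antiviral RNA-binding protein, fell (-0.72, adjusted p = 0.0259). Its call was lost without each OBX array but replicate 3 and without each sham array (highest adjusted p = 0.0828), and without sham replicate 1, 3 interferon genes rose. Rtp4, an interferon-induced chaperone, was higher on this array than on any OBX array, at 1421, 672 and 486 on the sham arrays and 1347, 1286 and 1352 on the OBX arrays (0.76 ± 0.57, adjusted p = 0.378).

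Genes of the glia around the olfactory axons rose in part. All 14 ensheathing and Schwann cell genes had positive changes, 7 rose and the median was 0.56, with 4 rising without OBX replicate 1 or sham replicates 1 or 2. Sox10, the factor that specifies these glia, read 233, 298 and 356 on the sham arrays and 687, 580.4 and 749 on the OBX arrays (1.15 ± 0.19, adjusted p = 0.00359), and with the gene's probe sets averaged the change was 0.47 and was not called (adjusted p = 0.0613). Cdh19, a cadherin of their precursors, read 464, 357 and 348 on the sham arrays and 850.5, 658 and 956 on the OBX arrays (1.04 ± 0.19, adjusted p = 0.00517), and Mal, a myelin and membrane protein, rose by 1.78-fold in mean signal. OBX replicate 3 was the highest array for all 3 genes. Their response in Lip-C mice was 0.53 ± 0.19, -0.10 ± 0.19 and -0.18 ± 0.17, and the differences between the responses had adjusted p of 0.257, 0.093 and 0.11.

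Of 17 endothelial genes 4 rose and none fell (median 0.30), and 2 rose without OBX replicate 2 or sham replicates 1 or 3. Cldn5, which seals the junctions between endothelial cells, read 641, 652 and 697 on the sham arrays and 1239, 1114 and 1254 on the OBX arrays (0.84 ± 0.10, adjusted p = 0.00114), and Esam, an adhesion molecule of the same junctions, rose by 1.61-fold in mean signal. Of 28 fibroblast and matrix genes 5 rose and none fell (median 0.07), with 3 rises without any OBX array or sham replicates 1 or 2. Their called share of 17.9% compares with 19.6% of all genes tested in either direction and 10.7% for rises. Thbs1, a matrix protein that also bridges phagocytes to dying cells, read 769.8, 1009.7 and 970.1 on the sham arrays and 1890.5, 1570.4 and 1477 on the OBX arrays (0.84 ± 0.13, adjusted p = 0.00273), and Col18a1, a basement membrane collagen, rose by 1.73-fold. In Lip-C mice 20 of the same 28 genes rose (median 0.77). Of 20 matrix proteases and inhibitors 1 rose and 1 fell, with 2 rises under the replicate block and 3 without sham replicate 1. The fall, of Mmp14, a membrane-bound collagenase (-0.59, adjusted p = 0.0392), was lost without any Lip-O array but OBX replicate 1 and without Lip-C OBX replicate 2 or Lip-C sham replicates 2 or 3. With its probe sets averaged Mmp14 changed by -0.35 and was not called (adjusted p = 0.214).

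Growth factors were called at a share of 25%, against 19.6% of all genes tested, with falls below the share of all genes (8.89%). Of 32 tested, 6 rose and 2 fell (median 0.29), and 3 rose without sham replicate 3. Bmp7, a bone morphogenetic protein, read 112, 143 and 149 on the sham arrays and 235, 246 and 264 on the OBX arrays (0.82 ± 0.15, adjusted p = 0.00484), and with the gene's probe sets averaged the change was 0.52 and was not called (adjusted p = 0.0669). Hgf, a ligand made by mesenchyme and glia, went from a level under the 40th percentile (33.5, 58.6 and 65.2) to 120.3, 99.6 and 123. Among the Lip-O arrays Hgf was above the filter level on the OBX arrays alone, so its values are a description. Its call, counted among the 6 rises, was lost without each of the 6 Lip-O arrays and each Lip-C OBX array (highest adjusted p = 0.135). Averaging its probe sets also lost the call (adjusted p = 0.0588). Fgf9, a fibroblast growth factor, read 296, 418 and 341 on the sham arrays and 125, 161 and 184 on the OBX arrays (-1.09 ± 0.17, adjusted p = 0.00333), and Bmp6 fell by 1.81-fold in mean signal (-0.86, adjusted p = 0.0108), a call lost in a fit of only the 6 Lip-O arrays (adjusted p = 0.0521). The groups of these 4 genes did not overlap.

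Genes of cell death were called in both directions, at a share close to that of all genes: 4 of 29 rose and 2 fell, with a median of 0.08, and 1 fell without sham replicate 2. Casp12, a caspase of the endoplasmic reticulum, read 119.5, 129 and 115 on the sham arrays and 243, 213 and 209 on the OBX arrays (0.79 ± 0.10, adjusted p = 0.00134). Bid, which links death receptors to mitochondria, read 242, 226 and 161 on the sham arrays and 500.2, 369 and 298 on the OBX arrays (0.83 ± 0.18, adjusted p = 0.0114), and with the gene's probe sets averaged the change was 0.54 and was not called (adjusted p = 0.0942). Casp8, the caspase that cuts it, rose by 1.58-fold in mean signal. Apaf1, the scaffold of the mitochondrial apoptosome, fell from 802, 853 and 827 to 515, 571 and 468 (-0.66 ± 0.09, adjusted p = 0.00157). None of these 4 genes had overlapping groups.

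Of 21 genes of axon injury and degeneration 6 rose and 3 fell (median 0.18). The rises numbered 2, 3 and 3 without OBX replicate 1 and sham replicates 2 and 3, and the falls 1 without OBX replicate 1 or sham replicate 3. Atf3, a factor induced in axotomised neurons, had a sham mean under the 40th percentile, with signals of 83.3, 51.6 and 20.9, and read 147, 104 and 169 after OBX (adjusted p = 0.0192), with a call lost without OBX replicates 1 or 3 (highest adjusted p = 0.0643). Map3k12, the DLK kinase that relays axonal injury, fell by 1.5-fold in mean signal (-0.58, adjusted p = 0.0328), a call lost without OBX replicates 1 or 2 or sham replicates 2 or 3 (highest adjusted p = 0.113). With the gene's probe sets averaged the change was -0.22 and was not called (adjusted p = 0.443). Among 19 immediate early genes 2 rose, Ccn2 and Ccn1, matricellular proteins that respond to serum and tension, and 1 fell. Ccn2 read 1854, 1448 and 1598 on the sham arrays and 4804, 2140.2 and 3919 on the OBX arrays (1.07 ± 0.25, adjusted p = 0.0139), and Ccn1 rose by 1.66-fold, with a call lost without OBX replicate 1 (adjusted p = 0.0614). Both lost the call in a fit of only the 6 Lip-O arrays (adjusted p = 0.0648 for Ccn2 and 0.071 for Ccn1). With its probe sets averaged Ccn1 changed by 0.44 and was not called (adjusted p = 0.126). The rises numbered 6 without sham replicate 1, and the fall, of the inducible factor Ier2 (-0.39, adjusted p = 0.0345), was lost without OBX replicates 1 or 3 or sham replicates 1 or 3.

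Of 13 heat shock genes 3 rose and 1 fell (median 0.07), with 1 rise without OBX replicate 1 or sham replicate 3, 0 falls without OBX replicate 1 or any sham array and 2 without OBX replicate 2. Cryab, a small heat shock protein, read 1028, 1139 and 1037 on the sham arrays and 2231, 1789.8 and 1707 on the OBX arrays (0.82 ± 0.20, adjusted p = 0.0178), a call lost without OBX replicate 1 or sham replicate 3 (highest adjusted p = 0.0706), and Bag3, its partner in chaperoned autophagy, rose by 1.36-fold with a call in all fits without 1 array (0.44, adjusted p = 0.00951). Antioxidant genes (4 higher and 1 lower of 25, with 1 or 2 higher without OBX replicates 1 or 3 or sham replicates 2 or 3, and none lower without OBX replicates 1 or 2, sham replicates 1 or 3 or Lip-C sham replicates 2 or 3), amino acid response genes (2 higher of 24) and endoplasmic reticulum chaperones (1 higher of 20) had medians of 0.20, 0.02 and 0.08. The called shares of these lists were 20%, 8.33% and 5%, against 19.6% of all genes tested. Both amino acid response calls were lost without OBX replicates 1 or 2, 1 of them without any sham array, and the chaperone call without sham replicates 2 or 3, while 1 amino acid response gene fell without Lip-C OBX replicate 3 or Lip-C sham replicate 2.

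Among genes of basic metabolism, ribosomal proteins gave 0 calls of 44 by limma (median 0.06, 1 at an unadjusted p under 0.05). Of 79 respiratory chain genes 10 fell and 1 rose (median -0.09), with 3 to 6 falls without any 1 of the 6 Lip-O arrays and 2 rises with the replicate block. At 13.9% called, this list lay below the 19.6% of all genes tested. Ndufv3, a complex I subunit, read 9774, 9289.5 and 10653 on the sham arrays and 6784, 7019 and 8234 on the OBX arrays (-0.43 ± 0.09, adjusted p = 0.00759; adjusted p = 0.0509 in a fit of only the 6 Lip-O arrays), and Cox8b, a tissue-specific subunit of cytochrome oxidase, read 3695, 3192 and 2839 on the sham arrays and 6056, 4884 and 4891 on the OBX arrays (0.70 ± 0.15, adjusted p = 0.0101). The 2 genes moved apart with no overlap in either. Of 16 glycolysis genes 3 fell and 1 rose, with 1 fall without OBX replicates 1 or 2 or sham replicates 1 or 3 and no rise without any 1 of the Lip-O arrays. Pgam1, a mutase of the lower pathway, read 5029.7, 4932 and 5649 on the sham arrays and 3149, 3392 and 3883 on the OBX arrays (-0.58 ± 0.10, adjusted p = 0.00379). Proteasome (2 higher of 40), cholesterol synthesis (1 lower of 19) and circadian clock genes (3 higher of 18) gave 4, 2 and 5 calls in these directions with the replicate block. Single arrays moved these counts to 1 proteasome gene (without OBX replicates 1 or 3 or sham replicates 2 or 3), to between 0 and 3 cholesterol genes and to 1 (without OBX replicate 2 or sham replicate 3) or 5 clock genes (without OBX replicate 3).

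Targets of the glucocorticoid receptor rose in part. Of 12 tested, 6 rose and none fell (median 0.39). Fkbp5, a cochaperone of the receptor, read 634, 563 and 607 on the sham arrays and 1159.5, 722 and 1184 on the OBX arrays (0.72 ± 0.17, adjusted p = 0.0143). Tsc22d3, the leucine zipper protein GILZ, read 1479, 1308 and 1297 on the sham arrays and 3080.0, 1492 and 2776 on the OBX arrays (0.78 ± 0.23, adjusted p = 0.0374), and Zbtb16, a zinc finger factor, read 76.6, 61.8 and 97.5 on the sham arrays and 324, 114 and 341 on the OBX arrays (1.43 ± 0.42, adjusted p = 0.0367). OBX replicates 1 and 3 were high in all 3 genes, and replicate 2 lay closest to the sham arrays. The count was 0 without OBX replicate 1, 1 without OBX replicate 3 or sham replicate 3, 2 without sham replicate 2, and 3 without sham replicate 1 or Lip-C sham replicate 2. With the replicate block 8 rose, in a fit of only the 6 Lip-O arrays 0, and with no filter on dim probe sets or no moderation of the variances 3. Fkbp5 lost its call without OBX replicate 1 (adjusted p = 0.0589), with its probe sets averaged (adjusted p = 0.0577) and with only the 6 Lip-O arrays (adjusted p = 0.0646), and Tsc22d3 and Zbtb16 without any Lip-O array but OBX replicate 2, without Lip-C sham replicate 2 and, for Zbtb16, without Lip-C OBX replicate 2 (highest adjusted p = 0.135 and 0.129). Averaging the probe sets of Tsc22d3 also lost its call (adjusted p = 0.0794). In Lip-C mice these 3 genes had negative changes, of -0.86 ± 0.17 for Fkbp5, -0.89 ± 0.23 for Tsc22d3 and -0.87 ± 0.42 for Zbtb16, and 2 of 12 fell. The difference between the responses was 1.58 ± 0.23 for Fkbp5 (adjusted p = 0.0747), 1.67 ± 0.32 for Tsc22d3 (adjusted p = 0.0782) and 2.30 ± 0.59 for Zbtb16 (adjusted p = 0.111).

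**Figure D4:**
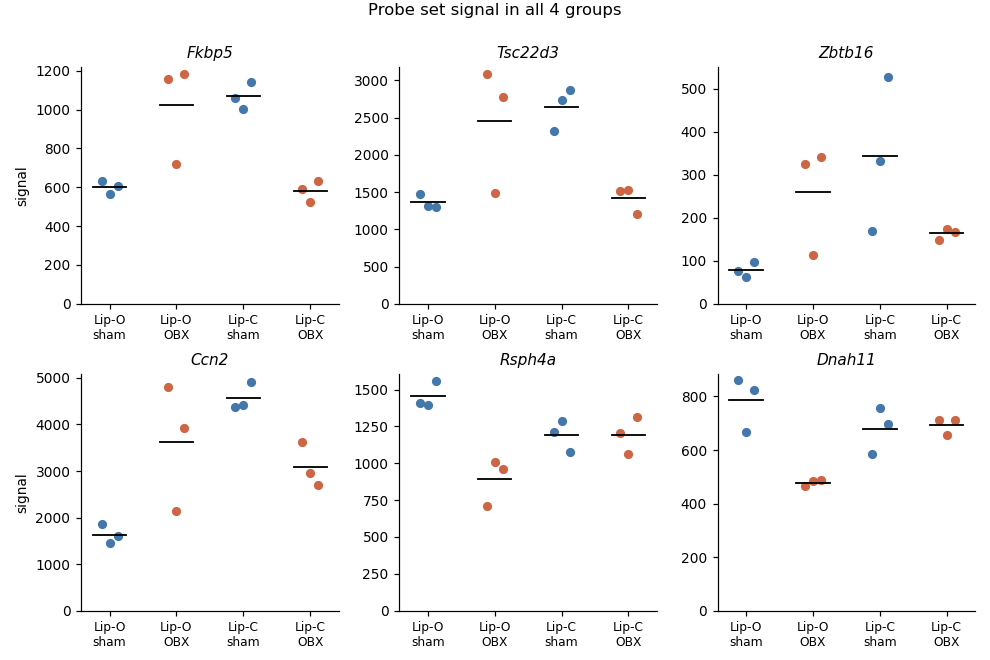
Probe set signal (axis from 0, 1 point an array, bar at the mean) of 6 genes in the 4 groups, sham in blue and OBX in orange. Fkbp5, Tsc22d3 and Zbtb16 are highest on OBX replicates 1 and 3 in Lip-O mice and have lower means after OBX in Lip-C mice. Rsph4a and Dnah11 are lower on all Lip-O OBX arrays than on the Lip-O sham arrays.

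Transcripts of other tissues were present at different levels in the groups. Alb, the plasma protein albumin made by liver, was near background in sham tissue at 47.5, 52.2 and 16.9 and read 527, 1184 and 151 after OBX. Ttr, a plasma carrier made by liver and choroid plexus, went from 31.3, 6.1 and 19.4 to 173, 372 and 100.1, and Ahsg, another liver secretory protein, from 11.8, 18.5 and 13.9 to 168, 118 and 119. Alb and Ttr passed the filter through the Lip-O OBX arrays alone, so they had to be higher there, and their values are a description with no test. Ahsg too was above the filter level on no Lip-O sham array, and its values are given in the same way. Of 18 liver genes 12 did not pass the filter on dim probe sets, among them Apob, Fgb and Cps1, and the 6 tested summed to 339.5 to 391.8 on the sham arrays and 627 to 2203 on the OBX arrays. Erythroid genes summed to 4144 to 5026 and 6403 to 7209, with 1 of 3 tested higher, 2 with the replicate block and 0 without OBX replicates 1 or 3 or sham replicate 3. Skeletal muscle genes (6 of 14 tested) gave no call by limma, with 1 at an unadjusted p under 0.05. The part of these transcripts in the other results was not tested.

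Markers of bulb neurons, which a dissection could carry over, did not move as 1 group. Of 16, the 7 that did not pass the filter include Th, Slc32a1 and Tbx21, and of the 9 tested 3 fell and 1 rose, with 1 fall without OBX replicate 1. Eomes, a factor of mitral and tufted cells, read 673, 476 and 495 on the sham arrays and 152, 225 and 304 on the OBX arrays (-1.25 ± 0.22, adjusted p = 0.0051), and Reln, an extracellular protein of the same cells that glia and other tissue also make, read 492, 366 and 414 on the sham arrays and 949, 728 and 984 on the OBX arrays (1.03 ± 0.17, adjusted p = 0.00346). Summed signals of the 9 were 11416 to 12306 on the sham arrays and 10160.0 to 10930 on the OBX arrays. Bone and cartilage genes, of nasal turbinates, had 17 of 19 negative changes (median -0.29) with 1 call, a rise of the cartilage collagen Col9a1 (0.85, adjusted p = 0.00864), 1 fall without OBX replicate 2, and sums of 15514 to 21168 and 10358 to 19135, which overlap. In Lip-C mice 12 of the 19 rose (median 1.30).

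In Lip-C mice OBX changed 2615 genes (19.2%), of which 1407 rose (10.3%) and 1208 fell (8.86%). The count was 838, 1042, 1052 and 1215 without Lip-C OBX replicates 1 or 2 or Lip-C sham replicates 2 or 3. Of the genes that fell in Lip-O mice, 597 also fell in Lip-C mice, which is 49.3% of the Lip-O and 49.4% of the Lip-C falls, and 11 rose there. Of the genes that rose in Lip-O mice 431 also rose in Lip-C mice (29.4% of the Lip-O and 30.6% of the Lip-C rises), and 12 fell there. The median change in Lip-C mice was -0.36 for the 1211 falling and 0.24 for the 1465 rising genes. The 2 responses have no array in common, though a gene's variance was estimated once over all 12 arrays. The difference between the responses was called for no gene (0% of those tested, lowest adjusted p = 0.0747), with 2405 genes (17.6%) at an unadjusted p under 0.05. With an intensity trend in the variance 66 genes were called, without the filter on dim probe sets 1, without Lip-O OBX replicate 2 155 and without Lip-C OBX replicate 3 3.

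**Figure D5:**
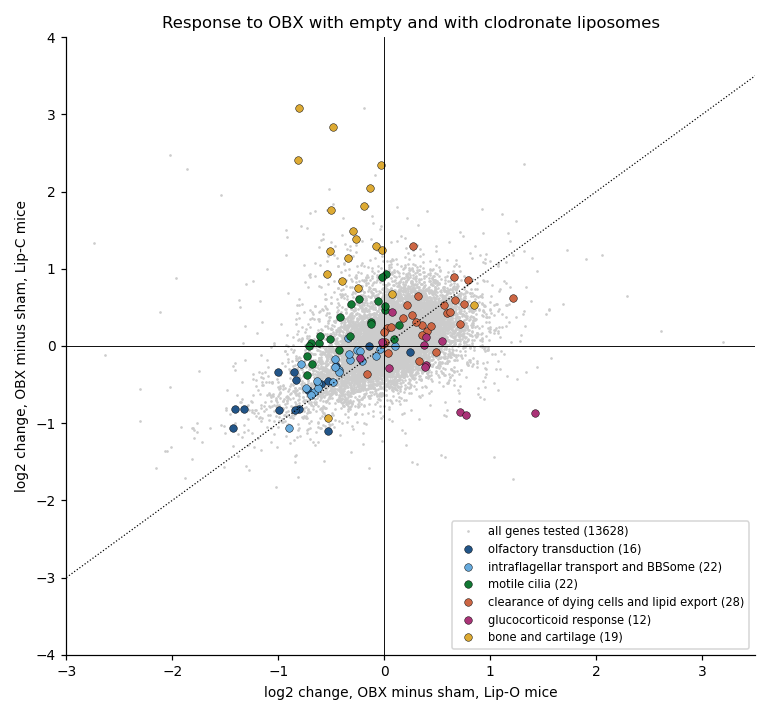
Log2 change after OBX in Lip-O mice (horizontal) and Lip-C mice (vertical) for all 13628 genes (grey) with the members of 6 lists in colour and a dotted line where both changes are equal. Olfactory transduction and cilia transport lie in the lower left, clearance genes in the upper right, bone and cartilage genes mostly in the upper left, and Fkbp5, Tsc22d3 and Zbtb16 of the glucocorticoid response in the lower right.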

How the data were processed

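RNA of microdissected olfactory epithelium was measured on 12 Affymetrix arrays, 3 in each of 4 groups, and the groups were taken from the sample titles. The authors deposited 1 linear signal intensity for each of 45101 probe sets, and every array's values have the same mean after 2% of each end is trimmed (500.002 to 500.003); per the labels' protocols the targets were biotinylated cRNA, and the sources used here do not give the algorithm behind the intensity values. Gene symbols came from the platform annotation: 34945 probe sets had 1 symbol, 932 several and 9160 none, and only the first were used. Intensities deposited by the authors were put on the log2(signal + 16) scale; 28986 probe sets passed, reading above the 40th percentile on 3 or more arrays, and the one with the highest mean stood for its gene. Group means over all 12 arrays were fitted with limma 3.58.1 (R 4.3.3; Python 3.11.15, pandas 2.3.3 and matplotlib 3.10.9 for the rest), with eBayes and Benjamini-Hochberg adjustment over 13628 genes. With 3 arrays a group, the number of arrays limits the precision (median standard error 0.12 on the log2 scale). The fit was tested on simulated data. Their noise was independent and normal and fewer genes were changed than were called here, so the outcome does not bear on single calls.

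Replicate numbers of the titles were checked for pairing through the correlation of deviations from the group means. In Lip-O mice it was 0.31, 0.28 and 0.13 for arrays of the same number and -0.33 to 0.16 for different numbers. In Lip-C mice it was 0.16, 0.04 and 0.08 for the same number and -0.16 to 0.09 for different numbers. These ranges overlap and the titles do not say that arrays were paired, so pairing is not settled. The model has no block, and the blocked values are given where they move a count by over 1.5 times. The genes named were drawn from the 15 largest rises and falls with separate groups and signals above the 40th percentile. Further sources were up to 4 called and 2 other members of each list, and reference genes. The last sources were the 12 lowest p-values and the 6 lowest for the difference between responses. Others are said to be chosen after their values were seen. Not all genes under these rules are given. The reference genes Cyp2g1, Ccl2 and Lif are not, nor are some list members, such as Krt18, Cxcl10 and Nog. Of the genes for the difference only Spata33 is given. Members and lists were chosen with earlier results of these data known. Alternatives changed the pseudocount, the scaling, the filter, the choice of probe set, the arrays in the fit, the variance model and the block, and left out each array in turn.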

Additional observations from a re-analysis of the deposited data

Results flagged for a closer look

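Among the 150 genes named and tested here there were 5 whose OBX and sham groups did not overlap in either treatment and moved in opposite directions. The share of all genes tested that meets this rule was not counted. Genes were named partly for large changes, so the 5 are a description. The log2 change of Slc12a2 was 0.24 with empty and -0.0789 with clodronate liposomes (adjusted p of the difference = 0.236). The log2 change of Dmbt1 was -1.86 with empty and 2.29 with clodronate liposomes (adjusted p of the difference = 0.133). The log2 change of Ccn2 was 1.07 with empty and -0.571 with clodronate liposomes (adjusted p of the difference = 0.0866). The log2 change of Tsc22d3 was 0.775 with empty and -0.891 with clodronate liposomes (adjusted p of the difference = 0.0782). The log2 change of Fkbp5 was 0.716 with empty and -0.86 with clodronate liposomes (adjusted p of the difference = 0.0747). In limma's test of the difference between the responses none of these passed the threshold.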

How the results depend on the processing

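Arrays in the fit mattered most. With only the 6 Lip-O arrays 1574 genes were called, 846 higher and 728 lower. With 1 array left out the Lip-O calls ranged from 1403 to 2793, higher calls from 728 to 1530, lower calls from 675 to 1263, Lip-C calls from 838 to 3030 and called differences between the responses from 0 to 155. Without the filter on dim probe sets 1736 genes were called in Lip-C mice and 1 for the difference, and with an intensity trend in the variance 66 for the difference. Under the replicate block 2971 genes were called in Lip-O mice (1666 higher and 1305 lower), 2997 in Lip-C mice and 0 for the difference. The other alternatives kept the Lip-O count within 1.5 times of 2676. Rises made up 54.7% of the calls, and between 47.4% and 56.1% under the alternatives. Calls held in all alternatives for 455 of 1465 rising and 515 of 1211 falling genes. Of 106 list counts, 12 moved by over 1.5 times under the replicate block, 32 with only the 6 Lip-O arrays, 14 with a gene's probe sets averaged and 39 without Lip-O OBX replicate 1. Of 127 called genes named, 43 lost the call in at least 1 alternative, 29 of them with only the 6 Lip-O arrays, 17 with probe sets averaged, 13 without moderation and 10 without the filter. Rises among the liver genes went from 3 to 1 with a filter on the mean signal, counts that carry the limit of the filter given beside those genes. The causes were not tested. Probe sets near background limit the odorant receptors, liver proteins and other dim genes. Among the Lip-O arrays Msr1, Cd86, Hgf and Itih4 were above the filter level on OBX arrays alone, which limits their calls.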

Other observations

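Some of the falls with the smallest p-values belonged to genes in no list. Tbc1d10c, a regulator of Rab and Ras signalling, read 401, 483 and 439 on the sham arrays and 175, 137 and 182 on the OBX arrays (-1.34 ± 0.11, adjusted p = 0.000636). Sybu, which ties syntaxin cargo to kinesin in axons, read 1120.1, 1038 and 1239.9 on the sham arrays and 409, 508 and 532 on the OBX arrays (-1.21 ± 0.11, adjusted p = 0.00087). Dnah7a, an inner arm dynein, read 332, 339 and 359.9 on the sham arrays and 197, 181 and 164 on the OBX arrays (-0.87 ± 0.08, adjusted p = 0.00087), and Rassf4, a Ras association domain protein, read 1142, 1139 and 1106 on the sham arrays and 612, 615 and 548 on the OBX arrays (-0.92 ± 0.09, adjusted p = 0.000892). In none of the 4 did the groups overlap. Gpr162, an orphan receptor, fell by 2.51-fold in mean signal (-1.29, adjusted p = 0.000892). Spata33, a gene first described in testis, was named for its low p-value in the difference between the responses, which was called for no gene. In Lip-O mice Spata33 fell by 1.74-fold in mean signal (-0.75, adjusted p = 0.00143).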
